A study of Mus musculus with 6 samples.

Results

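The genes described are the conjugating and redox detoxification enzymes of the mouse colon epithelium. They were chosen by symbol, with earlier results of these data known, as the protein-coding genes of the glutathione S-transferase (Gsta, Gstk, Gstm, Gsto, Gstp, Gstt, Gstz and the microsomal Mgst), UDP-glucuronosyltransferase (Ugt1, Ugt2, Ugt3), sulfotransferase (Sult), NAD(P)H quinone oxidoreductase (Nqo), glutamate-cysteine ligase (Gcl), aldehyde dehydrogenase (Aldh), aldo-keto reductase 1 (Akr1), carbonyl reductase (Cbr1, Cbr3) and epoxide hydrolase (Ephx1, Ephx2) families. The rule gave 112 members of the 52550 genes listed, after 7 pseudogenes were left out. RNA-seq was available from 3 samples of colon epithelium of Zfp90fl/fl mice and 3 of Zfp90ΔIEC mice, their littermates. Both groups carry the floxed Zfp90 allele on a background given as C57BL/6 in the labels and as C57BL/6 J in the study's methods, and the Zfp90ΔIEC mice also carry Villin-cre, whose promoter drives the recombinase in the intestinal epithelium and whose action removes exon 4 and the end of the gene. The mice were male. Their age is given as 6 to 8 weeks in the labels, and as 8 weeks at the injection of azoxymethane (AOM) in the study's methods. All had received 10 mg/kg of AOM, a carcinogen that needs metabolic activation. Dextran sulfate sodium (DSS), a compound that injures the colon, followed 5 days later, at 2% by the labels and at a higher concentration by the study's methods. DSS was given in 3 cycles of 7 days, each with 14 days of water, and the colons were taken on day 80. The study housed the genotypes apart after weaning, so cage and genotype cannot be told apart.

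These enzymes carry out the second and adjoining steps of foreign compound metabolism. Glutathione S-transferases join glutathione to electrophiles, UDP-glucuronosyltransferases add glucuronic acid and sulfotransferases add a sulfate group, which makes a compound more soluble and easier to export. Aldehyde dehydrogenases, aldo-keto reductases, carbonyl reductases, quinone oxidoreductases and epoxide hydrolases remove reactive aldehyde, ketone, quinone and epoxide groups. In the colon they act on diet-derived and bacterial products, bile acids, steroids and the products of lipid peroxidation, and many are known to be controlled by the receptors AHR and PXR or by the oxidant sensor NRF2.

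Levels are in FPKM, the fragments of a gene scaled to its transcript length in kilobases and to each M of mapped fragments, so that genes of different length can be compared. Fold changes are differences of log2(FPKM + 1), Zfp90ΔIEC minus Zfp90fl/fl, with a standard error (SE) from limma, and they understate the change of genes near or under 1 FPKM. The 6 samples were alike in depth, estimated at 26.3 to 28.8 M fragments from the smallest steps between values, and sample-to-sample correlations ranged from 0.98 to 0.99. Zfp90 was listed at 0.630, 0.490 and 0.569 FPKM in the Zfp90fl/fl samples and at 0.0846, 0.195 and 0.166 FPKM in the Zfp90ΔIEC samples. The genotype field of the labels of Zfp90ΔIEC replicates 2 and 3 names other gene numbers, and these samples were grouped by their titles. Among marker lists, the 12 mature colonocyte markers summed to 6268 to 8175 FPKM in Zfp90fl/fl and 9025 to 13314 FPKM in Zfp90ΔIEC, with 8 of the 12 higher at an unadjusted p under 0.05. Over all genes tested, 6.56% were higher and 8.09% lower at that level. The 8 goblet markers summed to 2077 to 2516 and 2699 to 3617 FPKM, with 3 of 8 higher at that level. The 10 crypt stem and cycling markers summed to 76.5 to 83.3 and 95.1 to 98 FPKM, with 5 of 8 tested higher at that level. The other 3 tested had a negative log2 fold change. Of the 5 higher, Mki67, a marker of cycling cells, passed limma's test (0.41, SE 0.0512 on the log2 scale, adjusted p = 0.0478). The 8 general epithelial markers overlapped at 5769.9 to 6509 and 5687 to 6168 FPKM. The 8 macrophage markers summed to 7.45 to 10.3 and 3.25 to 4.61 FPKM and the 7 B and plasma cell markers to 3.9 to 6.26 and 0.872 to 1.6 FPKM. The 8 neutrophil markers summed to 25.2 to 47.2 and 21.9 to 33 FPKM, the 8 T cell markers to 4.48 to 7.08 and 3.16 to 4.96 FPKM, the 9 fibroblast and muscle markers to 2.1 to 2.52 and 1.59 to 2.08 FPKM and the 5 endothelial markers to 0.38 to 0.521 and 0.595 to 0.622 FPKM. Only 3 macrophage, 1 B and plasma cell, 1 neutrophil and 2 T cell markers reached 1 FPKM in at least 3 samples and were tested. The same held for 1 fibroblast and muscle marker and 0 endothelial markers, so most markers of these cell types lay near the floor. No marker of any list was listed at 0 in every sample. The part of these shifts in the values below was not tested, and in tissue RNA a different number of cells of a type and a different amount of RNA per cell cannot be told apart.

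Together the members took between 0.760% and 0.885% of the summed FPKM of a sample. Of the 112, 69 passed the filter of at least 1 FPKM in at least 3 samples and were tested, 23 lay below it, and 20 were listed at 0 in every sample. The 20 at 0 are 8 Sult2a and 2 Sult3a genes, Sult1e1, Ugt2a2, Ugt2a3, Ugt2b37, Ugt2b38, Ugt3a1, Ugt3a2, Aldh3a1, Aldh8a1 and Akr1cl. Of the 23 below the filter, 7 were Ugt, 5 Sult, 4 Akr1, 4 Aldh and 3 Gst genes, and 3 of the 23 did not overlap between genotypes (Akr1c21 and Aldh1l2 higher, Ugt2b1 lower in Zfp90ΔIEC), 13% against 10.3% of the 16241 genes below the filter and above 0 in a sample. The level was concentrated in few genes, as 13 members at 100 FPKM or more held 63.0% of the members' sum and the 10 highest held 53.3%. Mgst3 stood first, with 334 ± 8.82 FPKM in Zfp90fl/fl and 383 ± 42.5 FPKM in Zfp90ΔIEC (mean ± SD, n = 3 each), followed by Gstp1 with 226 ± 15.3 and 283 ± 30.8 FPKM and Sult1a1 with 188 ± 33.3 and 244 ± 23.9 FPKM. These 3 catalyse glutathione transfer at membranes, glutathione transfer in the cytosol and sulfation of phenols. Within each genotype the sample values of Gstp1 and Sult1a1 overlap, and those of Mgst3 lie above both.

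No member passed the test between genotypes. limma called 0 of the 69 members at an adjusted p under 0.05, where it called 0.199% of the 11564 genes tested. At an adjusted p under 0.1 it called 6 members, Akr1c18, Akr1b7, Gstt1, Sult1c2, Gstp3 and Aldh1l1, where the share over all genes was 1.52%. At an unadjusted p under 0.05, 27 members stood out, 19 higher and 8 lower in Zfp90ΔIEC. The 19 are 27.5% of the members tested, where 6.56% of all genes tested were higher at this level, and the 8 are 11.6%, where 8.09% of all genes were lower. Without Zfp90fl/fl replicate 1 the 19 became 11. In 19 members every Zfp90ΔIEC sample lay above every Zfp90fl/fl sample, 27.5% against 8.73% of all genes, and in 9 members every Zfp90ΔIEC sample lay below, 13% against 12.6%. Both counts of 19 include Ugt1a1, Ugt1a6a, Ugt1a7c, Gstp1 and Gstp2. Transcripts of these genes share much of their sequence with other transcripts, so their FPKM are not separate observations and such shares overstate the number of independent differences. The median log2 fold change was 0.04 over the members tested and -0.02 over all genes tested. Differences were small, as 67 of the 69 log2 fold changes lay between -0.60 and 0.47 and the median SE was 0.0879. Zfp90ΔIEC replicate 2 held the highest value of 34 of the 69 members, and no other sample held that of more than 10.

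**Figure D1:**
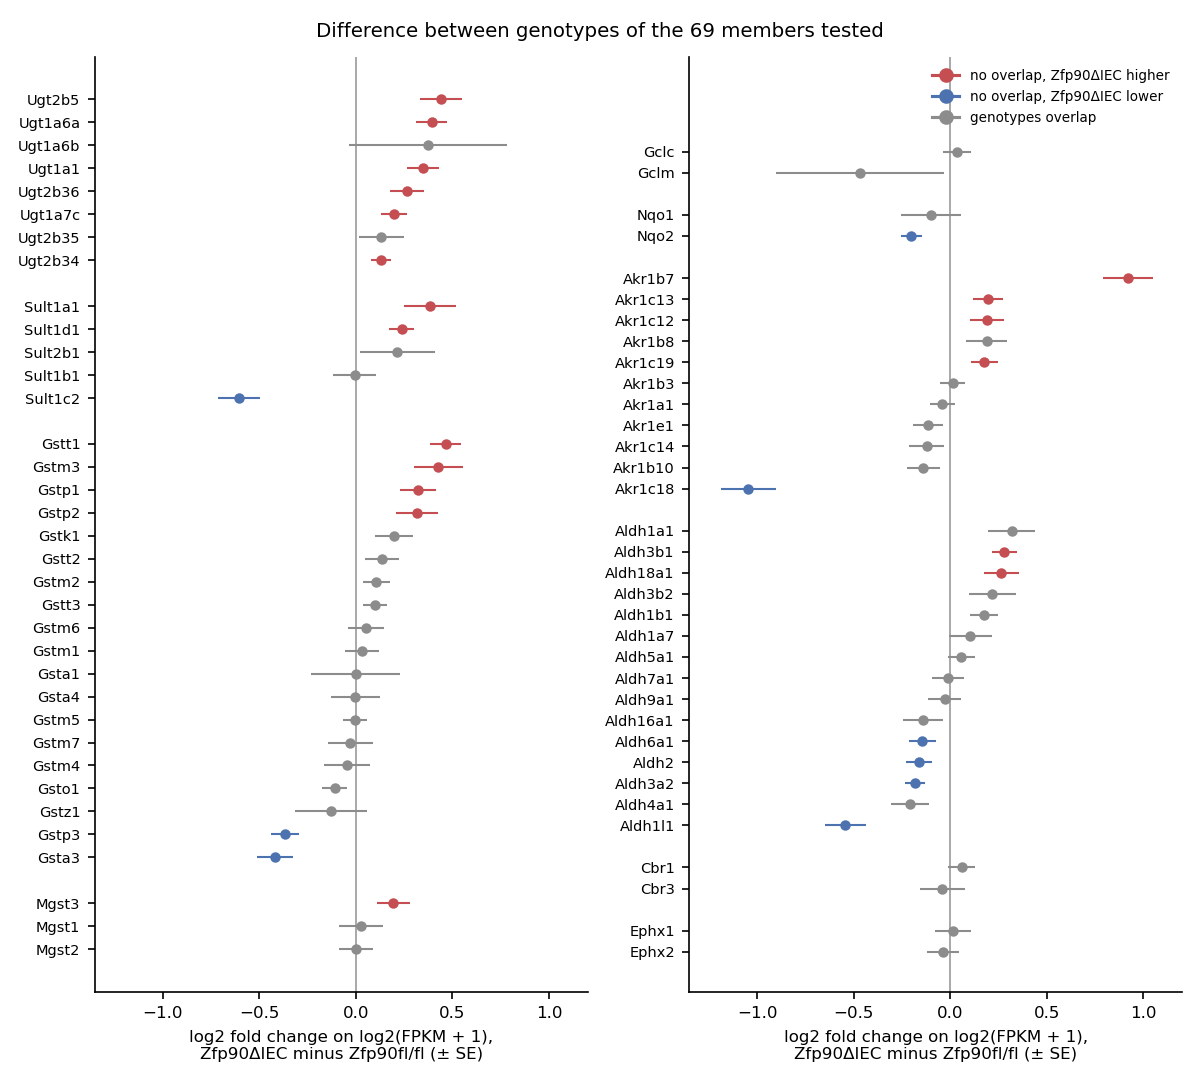
Log2 fold change of each of the 69 members tested (x axis, log2(FPKM + 1), Zfp90ΔIEC minus Zfp90fl/fl, bars ± SE from limma), grouped by family. Red points are the 19 members whose Zfp90ΔIEC samples all lie above the Zfp90fl/fl samples, blue points the 9 that all lie below, and gray points overlap. Akr1b7 and Akr1c18 lie farthest from 0, and no member passed an adjusted p under 0.05.

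Summed by family, the glucuronosyltransferases had the largest log2 ratio between genotypes of the 10 families. The 21 Ugt genes summed to 313, 328 and 328 FPKM in Zfp90fl/fl replicates 1 to 3 and to 383, 393 and 370.3 FPKM in Zfp90ΔIEC replicates 1 to 3, a log2 ratio of the means of 0.24. The sums did not overlap, and the distance between the groups exceeded the SD within either, 323 ± 8.84 against 382 ± 11.4 FPKM. The 21 Sult genes summed to 443, 420.2 and 496 FPKM in Zfp90fl/fl and 496, 522 and 569.6 FPKM in Zfp90ΔIEC (log2 ratio 0.22), where the highest Zfp90fl/fl sample and the lowest Zfp90ΔIEC sample nearly met. The 22 cytosolic and mitochondrial Gst genes summed to 913, 903 and 909 FPKM in Zfp90fl/fl and 965, 1112 and 934 FPKM in Zfp90ΔIEC (log2 ratio 0.14). Here the Zfp90fl/fl samples were within 11 FPKM of each other and Zfp90ΔIEC replicate 2 stood far above the rest; without it the log2 ratio was 0.06, and without Gstp1, the highest member, it was 0.08. The Mgst, Akr1, Aldh, Cbr, Ephx, Gcl and Nqo sums overlapped between genotypes, with log2 ratios of 0.17, 0.09, -0.01, 0.05, -0.01, -0.04 and -0.10. Leaving out 1 sample moved these by over 1.5 times, for example to 0.08 for Mgst and -0.02 for Cbr without Zfp90ΔIEC replicate 2, to 0.04 for Akr1 without Zfp90fl/fl replicate 1, to 0.03 for Nqo without Zfp90ΔIEC replicate 1 and -0.26 without Zfp90ΔIEC replicate 2, and to 0.096 for Gcl without Zfp90ΔIEC replicate 3, and the Aldh and Ephx ratios changed sign. Sums were given no test.

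**Figure D2:**
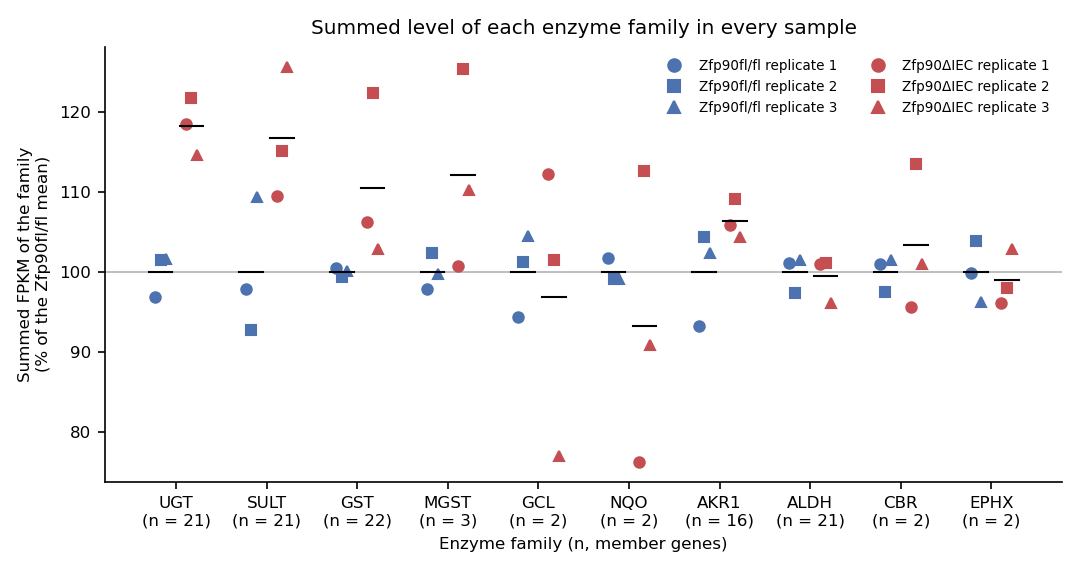
Summed FPKM of each enzyme family in every sample (y axis, percent of the Zfp90fl/fl mean of that family). Points are samples, black bars group means. The UGT, SULT and GST sums of the 3 Zfp90ΔIEC samples lie above those of the 3 Zfp90fl/fl samples, and the other 7 families overlap.

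All 8 Ugt genes tested had a positive log2 fold change, with a median of 0.31, where 4951 of the 11564 genes tested had a positive and 6613 a negative one. In 6 of the 8 every Zfp90ΔIEC sample lay above every Zfp90fl/fl sample, which held for 8.73% of all genes tested. Ugt1a1, the enzyme that conjugates bilirubin, was measured at 49.97, 59.3 and 55.3 FPKM in Zfp90fl/fl replicates 1 to 3 and at 66, 75.2 and 68.7 FPKM in Zfp90ΔIEC replicates 1 to 3. Every Zfp90ΔIEC value was above every Zfp90fl/fl value (log2 fold change 0.35, SE 0.0822, adjusted p = 0.134). Ugt1a6a, which conjugates small planar phenols, was at 21.7, 26.2 and 25 FPKM in Zfp90fl/fl and 32.4, 33.4 and 30.6 FPKM in Zfp90ΔIEC, again without overlap (log2 fold change 0.39, SE 0.0812, adjusted p = 0.112). Ugt1a7c, the Ugt1 gene of highest level, was at 85.4, 86.1 and 83.8 FPKM in Zfp90fl/fl and 98.2, 106 and 90.5 FPKM in Zfp90ΔIEC (log2 fold change 0.20, SE 0.0673, adjusted p = 0.256). Its groups also did not overlap, and no Ugt gene passed an adjusted p under 0.1.

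The Ugt1 genes lie in 1 locus on chromosome 1, from 88055388 to 88220002 in GRCm38, where each has a first exon of its own and all share the remaining exons. Of the 75-base stretches of the longest coding transcript, 57.7% of those of Ugt1a1, 69.1% of Ugt1a7c and all of those of Ugt1a6a also occur in transcripts of other genes, so their separate FPKM depend on how shared fragments were assigned. The sum over the 9 Ugt1 genes was 166, 178 and 171 FPKM in Zfp90fl/fl and 209.8, 221 and 201 FPKM in Zfp90ΔIEC (log2 ratio 0.29). The groups were again apart, and the sum also depends on that assignment, because the transcript of Ugt1a7c has 3302 bases and those of the other 8 have 2190 to 2303. Ugt1a6b, the fourth Ugt1 gene tested, was at 6.87, 5.00 and 3.81 FPKM in Zfp90fl/fl and 10.3, 2.98 and 9.94 FPKM in Zfp90ΔIEC, with Zfp90ΔIEC replicate 2 lowest of all.

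On chromosome 5, Ugt2b34, a glucuronosyltransferase that alone gave 35.8% of the family's level, was at 119, 119 and 124 FPKM in Zfp90fl/fl and 135, 128 and 133 FPKM in Zfp90ΔIEC (log2 fold change 0.13, SE 0.0509, adjusted p = 0.316). The values were tight within each genotype and did not overlap. Ugt2b5 was at 18.5, 19.2 and 20.2 FPKM in Zfp90fl/fl and 25.6, 31.5 and 23.2 FPKM in Zfp90ΔIEC, a ratio of the means of 1.39 (log2 fold change 0.44, SE 0.109, adjusted p = 0.137), and it shares 30.4% of its 75-base stretches with other transcripts. Ugt2b5 had the largest log2 fold change of the family, and its 3 Zfp90ΔIEC samples lay above the others. Of the 2 remaining Ugt2b genes tested, named after their values were seen, Ugt2b36 was at 1.57, 1.67 and 1.66 FPKM in Zfp90fl/fl and 2.27, 2.4 and 1.84 FPKM in Zfp90ΔIEC, without overlap (log2 fold change 0.26, SE 0.0863, adjusted p = 0.243). Ugt2b35 overlapped, with a log2 fold change of 0.13 (SE 0.117, adjusted p = 0.652).

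**Figure D3:**
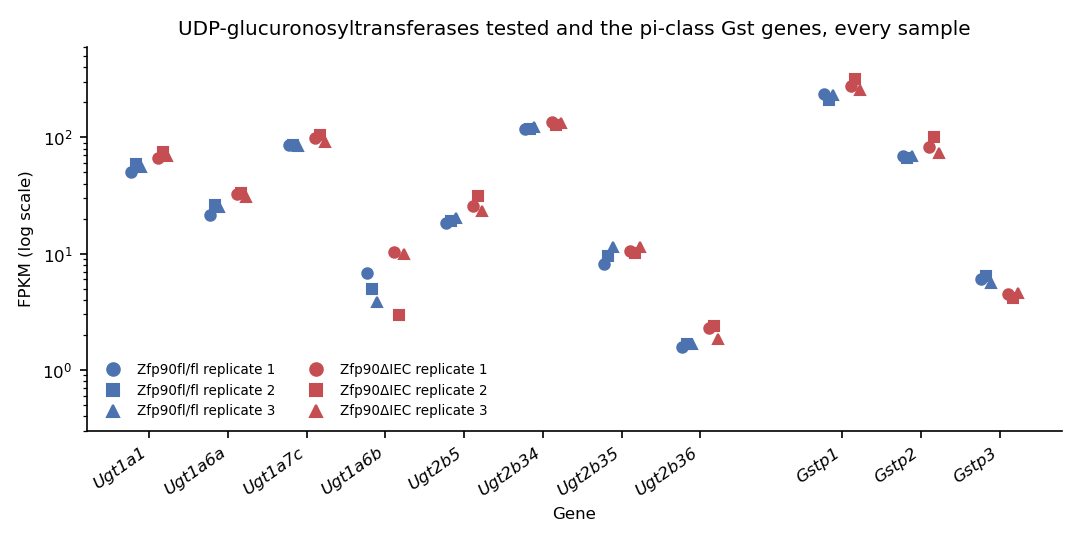
FPKM (y axis, log scale) of the 8 Ugt genes tested and the 3 pi-class Gst genes in each sample. All 3 Zfp90ΔIEC samples (red) lie above all 3 Zfp90fl/fl samples (blue) for Ugt1a1, Ugt1a6a, Ugt1a7c, Ugt2b5, Ugt2b34, Ugt2b36, Gstp1 and Gstp2, and below them for Gstp3.

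Within the sulfotransferases, members of the Sult1 subfamily lay in opposite directions, none past the test. Sult1c2 was at 31.4, 31.1 and 28.9 FPKM in Zfp90fl/fl replicates 1 to 3 and at 17.1, 23.4 and 19 FPKM in Zfp90ΔIEC replicates 1 to 3. Each Zfp90ΔIEC value was below each Zfp90fl/fl value, and the mean was 0.651 of that in Zfp90fl/fl (log2 fold change -0.60, SE 0.11, adjusted p = 0.0873). Without Zfp90ΔIEC replicate 2, the highest of its group, Sult1c2 passed the test (log2 fold change -0.72, adjusted p = 0.0474). Sult1a1, the phenol sulfotransferase, gave 44.1% of the family's level, with 189, 155 and 222 FPKM in Zfp90fl/fl and 239, 224 and 271 FPKM in Zfp90ΔIEC (log2 fold change 0.38, SE 0.136, adjusted p = 0.272). Its groups were apart by less than 3 FPKM, since Zfp90fl/fl replicate 3 and Zfp90ΔIEC replicate 2 nearly coincide, and without Zfp90fl/fl replicate 2 the log2 fold change was 0.25. Sult1d1, which acts on catecholamines, was at 157, 162 and 169 FPKM in Zfp90fl/fl and 179, 202 and 196 FPKM in Zfp90ΔIEC (log2 fold change 0.24, SE 0.0652, adjusted p = 0.177), without overlap. Sult1b1, at 67.5 ± 4.22 FPKM in Zfp90fl/fl and 67.7 ± 10.2 FPKM in Zfp90ΔIEC (mean ± SD), overlapped between genotypes (log2 fold change -0.01, SE 0.111). Of the 5 Sult genes tested, 3 had a positive and 2 a negative log2 fold change.

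Among the 19 Gst genes tested, 10 had a positive and 9 a negative log2 fold change. Gstt1, a theta-class enzyme that acts on small halogenated compounds, was at 9.56, 10.2 and 10.1 FPKM in Zfp90fl/fl and 15.8, 13.2 and 13.5 FPKM in Zfp90ΔIEC, 1.42 times the Zfp90fl/fl mean (log2 fold change 0.47, SE 0.0789, adjusted p = 0.0797). The Zfp90fl/fl values lay within 1 FPKM of each other and every Zfp90ΔIEC value was higher. Gstm3, of the mu class, was at 47.2, 45.8 and 44.1 FPKM in Zfp90fl/fl and 58, 76.1 and 53.3 FPKM in Zfp90ΔIEC (log2 fold change 0.43, SE 0.126, adjusted p = 0.205); Zfp90ΔIEC replicate 2 was the highest, without which the log2 fold change was 0.28, and the groups did not overlap. Gstm1, at 141 ± 5.63 FPKM in Zfp90fl/fl and 144 ± 16 FPKM in Zfp90ΔIEC (mean ± SD) the mu-class gene of highest level, overlapped between genotypes (log2 fold change 0.03, SE 0.086). Of the 7 Gstm genes, all tested and neighbours on chromosome 3, Gstm3 alone reached an unadjusted p under 0.05. Gstm3 shares 21.6% and Gstm1 20.4% of their 75-base stretches with other transcripts. Gsta3, an alpha-class enzyme known for detoxifying aflatoxin epoxide in mice, was at 7.25, 6.23 and 6.78 FPKM in Zfp90fl/fl and 4.14, 5.18 and 5.1 FPKM in Zfp90ΔIEC, lower in each Zfp90ΔIEC sample (log2 fold change -0.42, SE 0.0924, adjusted p = 0.121). The other 2 alpha-class genes tested, Gsta1 and Gsta4, had log2 fold changes that round to 0 (SE 0.232 and 0.127), and 86.3% of the 75-base stretches of Gsta1 occur in other transcripts. Gsto1, an omega-class enzyme, was at 170.3, 165 and 188 FPKM in Zfp90fl/fl and 159, 160.0 and 166 FPKM in Zfp90ΔIEC with overlap (log2 fold change -0.11, SE 0.0643, adjusted p = 0.49).

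The pi class, neighbouring genes on chromosome 19, was split in direction, and none of the 3 passed the test. Gstp1, the class's main enzyme in most epithelia, was at 236, 208 and 232 FPKM in Zfp90fl/fl replicates 1 to 3 and at 279, 315 and 254 FPKM in Zfp90ΔIEC replicates 1 to 3 (log2 fold change 0.32, SE 0.0933, adjusted p = 0.199). Gstp2 was at 69.7, 66.2 and 68.6 FPKM in Zfp90fl/fl and 83.1, 100.3 and 73.8 FPKM in Zfp90ΔIEC (log2 fold change 0.32, SE 0.108, adjusted p = 0.262). Both were higher in every Zfp90ΔIEC sample, and without Zfp90ΔIEC replicate 2 the log2 fold change of Gstp2 was 0.198. Gstp3, at a far lower level, was at 6.05, 6.44 and 5.57 FPKM in Zfp90fl/fl and 4.53, 4.17 and 4.63 FPKM in Zfp90ΔIEC, lower in every Zfp90ΔIEC sample (log2 fold change -0.37, SE 0.0706, adjusted p = 0.0927). The longest open reading frames of Gstp1 and Gstp2 are 98.1% identical and that of Gstp3 is 72.7% identical to Gstp1. Gstp1 shares 57.7% and Gstp2 68.2% of their 75-base stretches with other transcripts, so the division between these 2 is uncertain, whereas Gstp3 shares none.

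The 250 bases before the start sites of the 3 pi-class genes are shown because these neighbours differ in direction. They are RefSeq sequences of GRCm38.p6 from the minus strand, at chr19:4037913-4038162 for Gstp1, chr19:4042222-4042471 for Gstp2 and chr19:4059448-4059697 for Gstp3, written 5′ to 3′. Capitals mark TGAGTCA, the AP-1 motif, which was chosen for the search after these windows had been seen.
Gstp1: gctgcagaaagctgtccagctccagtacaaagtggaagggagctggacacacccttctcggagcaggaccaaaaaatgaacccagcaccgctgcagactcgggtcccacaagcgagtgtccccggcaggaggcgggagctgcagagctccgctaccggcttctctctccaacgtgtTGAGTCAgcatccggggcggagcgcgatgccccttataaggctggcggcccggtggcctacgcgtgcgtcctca
Gstp2: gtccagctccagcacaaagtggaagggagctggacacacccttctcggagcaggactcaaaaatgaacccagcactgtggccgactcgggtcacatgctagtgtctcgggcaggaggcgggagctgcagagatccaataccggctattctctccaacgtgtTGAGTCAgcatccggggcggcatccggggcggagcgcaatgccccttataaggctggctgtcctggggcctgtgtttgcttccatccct
Gstp3: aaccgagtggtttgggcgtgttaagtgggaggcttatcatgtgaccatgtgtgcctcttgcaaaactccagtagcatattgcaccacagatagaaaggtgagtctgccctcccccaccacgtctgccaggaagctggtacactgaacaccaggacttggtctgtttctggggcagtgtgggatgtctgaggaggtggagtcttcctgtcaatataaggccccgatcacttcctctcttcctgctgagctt

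The windows of Gstp1 and Gstp2 are 78.1% identical and each holds the motif, 74 and 89 bases before the start. The window of Gstp3 is 47.7% identical to that of Gstp1 and does not hold these letters. On either strand, TGAGTCA occurred in 3.28% of the 10716 windows of all genes tested and in 8.22% of the 73 windows of members tested. Besides Gstp1 and Gstp2, the members tested that hold it are Aldh1a1, Gstm5, Mgst2 and Sult2b1. Those overlapped between genotypes, with log2 fold changes of 0.32, -0.006, -0.0003 and 0.21. The reverse complement of TGAGTCA, where GC follows it, overlaps TGACNNNGC, the core of the antioxidant response element (ARE) bound by NRF2. The windows of Gstp1 and Gstp2 do not hold this core. That core, on either strand, occurred in 8.22% of the 73 windows of members tested, namely those of Aldh9a1, Gclm, Gsta3, Gstm5, Gstm7 and Mgst1, and in 12% of all windows of genes tested. GCGTG, the core of the xenobiotic response element bound by AHR, occurred in 24.7% and 45.3%. Of the 69 members tested, 60 had a window.

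Stretches of 60 bases around 3 of these ARE cores are shown for an enzyme each of glutathione synthesis, glutathione transfer in the cytosol and glutathione transfer at membranes. They come from RefSeq, GRCm38.p6, plus strand, at chr3:122245398-122245457, chr1:21240439-21240498 and chr6:138140446-138140505, and capitals mark the match to the core or its reverse complement. The matches begin 134, 121 and 56 bases before the start.
Gclm: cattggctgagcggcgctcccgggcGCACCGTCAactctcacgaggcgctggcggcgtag
Gsta3: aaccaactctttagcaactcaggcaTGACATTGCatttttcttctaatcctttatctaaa
Mgst1: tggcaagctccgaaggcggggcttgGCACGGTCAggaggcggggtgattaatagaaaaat

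Of these 3 genes, alike in holding the core, Gsta3 was lower in each Zfp90ΔIEC sample (log2 fold change -0.42), while Gclm and Mgst1 overlapped between genotypes. Aldh9a1, Gstm5 and Gstm7, which hold the core too, also overlapped, with log2 fold changes of -0.03, -0.01 and -0.03. Gclm, the modifier subunit of the enzyme that starts glutathione synthesis, was at 10.1, 11.9 and 10.9 FPKM in Zfp90fl/fl and 13.1, 10.6 and 2.98 FPKM in Zfp90ΔIEC. Zfp90ΔIEC replicate 3 stood far below the other 5 samples, and the log2 fold change was -0.47 with it (SE 0.435, adjusted p = 0.671) and 0.09 without it. Gclc, the catalytic subunit, was at 29.2, 30.3 and 32.7 FPKM in Zfp90fl/fl and 33.8, 31.8 and 29.1 FPKM in Zfp90ΔIEC and did not share this low value (log2 fold change 0.04, SE 0.074, adjusted p = 0.861). Mgst1 was at 55.8, 53.9 and 57.3 FPKM in Zfp90fl/fl and 47.7, 66.6 and 57.2 FPKM in Zfp90ΔIEC with overlap (log2 fold change 0.03, SE 0.115, adjusted p = 0.932). Mgst3 was at 325, 343 and 333 FPKM in Zfp90fl/fl and 343, 428 and 379 FPKM in Zfp90ΔIEC. Its lowest Zfp90ΔIEC value lay just above the highest Zfp90fl/fl value (log2 fold change 0.19, SE 0.0855, adjusted p = 0.364), and without Zfp90ΔIEC replicate 2 the log2 fold change was 0.11.

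Nqo1, the quinone reductase most often read as a marker of NRF2 activity, was at 45.4, 43.9 and 44.4 FPKM in Zfp90fl/fl and 32.7, 52.9 and 41.4 FPKM in Zfp90ΔIEC. The Zfp90fl/fl values were tight, whereas the Zfp90ΔIEC samples lay on both sides of them (log2 fold change -0.10, SE 0.155, adjusted p = 0.81). Nqo2, the related reductase that uses another cofactor, was at 10.2, 10.3 and 9.91 FPKM in Zfp90fl/fl and 8.96, 8.8 and 8.32 FPKM in Zfp90ΔIEC, lower in each Zfp90ΔIEC sample (log2 fold change -0.20, SE 0.0551, adjusted p = 0.176).

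The aldo-keto reductases held the 2 members of largest difference, in opposite directions. Akr1c18, which inactivates progesterone by reducing its C20 ketone, was at 4.42, 6.06 and 5.68 FPKM in Zfp90fl/fl replicates 1 to 3 and at 1.78, 2.67 and 1.85 FPKM in Zfp90ΔIEC replicates 1 to 3. The Zfp90ΔIEC mean was 0.39 of the Zfp90fl/fl mean, without overlap (log2 fold change -1.05, SE 0.142, adjusted p = 0.0593). These levels correspond to an estimated 139.5 to 206 fragments per Zfp90fl/fl sample and 60.01 to 92.4 per Zfp90ΔIEC sample. Akr1b7, which reduces lipid aldehydes, was at 0.922, 0.805 and 1.2 FPKM in Zfp90fl/fl and 3.4, 2.47 and 2.39 FPKM in Zfp90ΔIEC, 2.82 times the Zfp90fl/fl mean (log2 fold change 0.92, SE 0.127, adjusted p = 0.0614). It passed the filter through the 3 Zfp90ΔIEC samples and 1 Zfp90fl/fl sample and rests on an estimated 29.2 to 44 and 87.4 to 122 fragments per sample.

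The members next to both genes lay in either direction. Akr1c18 lies in a stretch of 9 members on chromosome 13, from 4049011 to 4609174 in GRCm38, in which 6 were tested, 3 with a positive and 3, Akr1c18 among them, with a negative log2 fold change. Akr1c13, the family's member of highest level, was at 126, 149.6 and 142 FPKM in Zfp90fl/fl and 160.2, 167 and 152 FPKM in Zfp90ΔIEC, higher in each Zfp90ΔIEC sample (log2 fold change 0.19, SE 0.0772, adjusted p = 0.32). It shares 17.3% of its 75-base stretches, with Akr1c12 among the transcripts that hold them, whose log2 fold change was 0.19 (SE 0.0879, adjusted p = 0.386). Without Zfp90fl/fl replicate 1 the log2 fold change was 0.13 for Akr1c13 and 0.0986 for Akr1c12. In the same stretch Akr1c21, the only member below the filter with a ratio of at least 4 and no overlap, was listed at 0.0644, 0.129 and 0.145 FPKM in Zfp90fl/fl and 1.24, 0.694 and 0.229 FPKM in Zfp90ΔIEC, 6.4 times the Zfp90fl/fl mean, on an estimated 2.05 to 5.01 and 7.92 to 42 fragments per sample. Its Zfp90ΔIEC values spread widely, and in the fit without a filter its adjusted p was 0.441. Akr1c19 had a log2 fold change of 0.18 (SE 0.0688, adjusted p = 0.313), and Akr1c14 had one of -0.12 (SE 0.0907, adjusted p = 0.584). Akr1b7 has 3 Akr1b neighbours on chromosome 6, of which 2, Akr1b8 (0.19) and Akr1b3 (0.01), shared its positive sign of the log2 fold change and Akr1b10 (-0.14) did not. None of the 3 reached an unadjusted p under 0.05. Akr1a1, which reduces a broad range of aldehydes, was at 129, 145 and 142 FPKM in Zfp90fl/fl and 130.1, 138 and 137 FPKM in Zfp90ΔIEC with overlap (log2 fold change -0.04, SE 0.0646, adjusted p = 0.812).

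**Figure D4:**
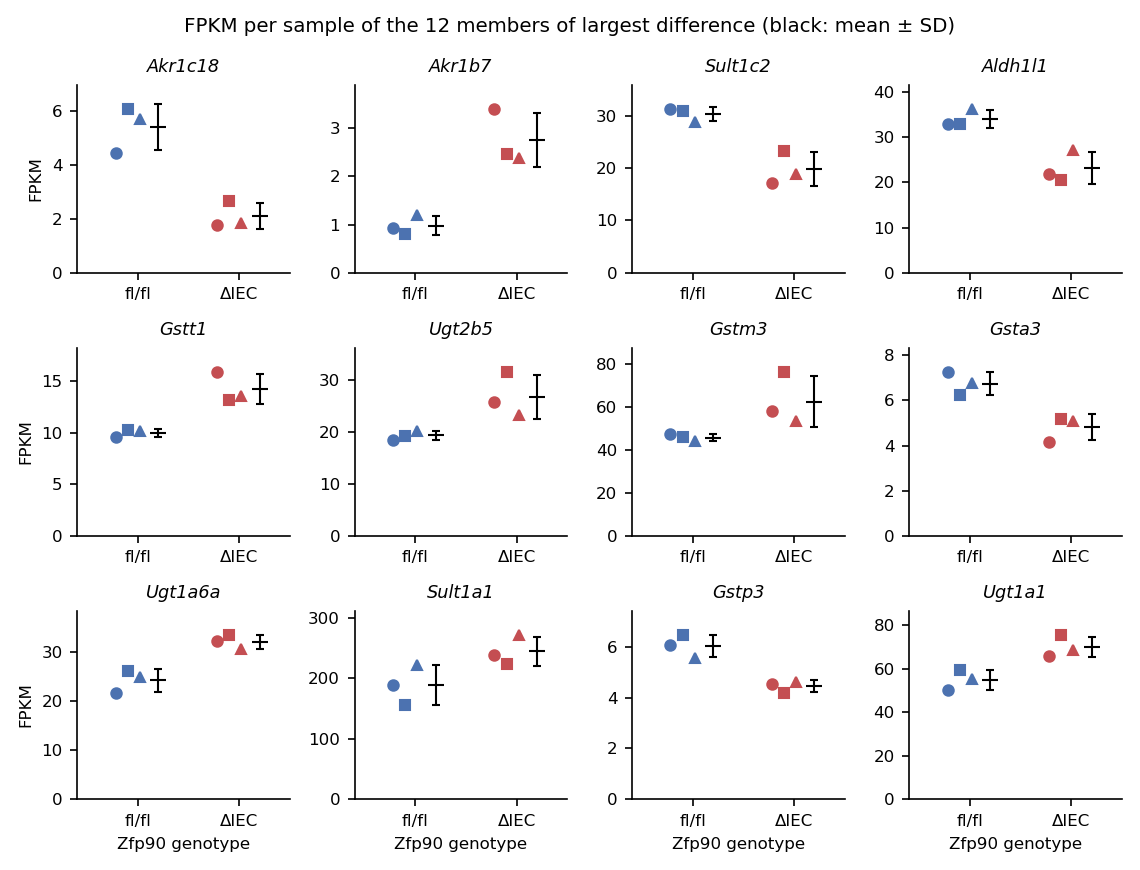
FPKM of the 12 members of largest absolute log2 fold change among those at an unadjusted p under 0.05 (y axes from 0, points are samples with circles, squares and triangles for replicates 1, 2 and 3, black bars mean ± SD). Zfp90fl/fl and Zfp90ΔIEC samples do not overlap in any of the 12, which were chosen for their difference.

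Of the 15 Aldh genes tested, 7 had a positive and 8 a negative log2 fold change. Aldh1l1, which oxidises 10-formyltetrahydrofolate in the folate cycle, was at 32.9, 32.9 and 36.3 FPKM in Zfp90fl/fl and 22, 20.5 and 27.1 FPKM in Zfp90ΔIEC, 0.682 of the Zfp90fl/fl mean. Every Zfp90ΔIEC sample was lower (log2 fold change -0.54, SE 0.106, adjusted p = 0.0984). Aldh2, the mitochondrial enzyme that clears acetaldehyde, was at 124, 115 and 111 FPKM in Zfp90fl/fl and 108, 98.4 and 106 FPKM in Zfp90ΔIEC, where the lowest Zfp90fl/fl and the highest Zfp90ΔIEC sample were close (log2 fold change -0.16, SE 0.0669, adjusted p = 0.34). Aldh1b1, a mitochondrial relative of Aldh2 described in crypt base cells, was at 99.2, 93 and 107 FPKM in Zfp90fl/fl and 118, 113 and 106 FPKM in Zfp90ΔIEC, and its genotypes overlapped (log2 fold change 0.18, SE 0.0724, adjusted p = 0.33). Further Aldh genes without overlap were Aldh3b1 (log2 fold change 0.28, SE 0.0664, adjusted p = 0.134) and Aldh18a1, of proline synthesis (log2 fold change 0.26, SE 0.0900, adjusted p = 0.26), both higher in Zfp90ΔIEC. Aldh3a2, the fatty aldehyde dehydrogenase, lay lower at 20.8, 20.4 and 20.2 FPKM in Zfp90fl/fl and 17.2, 18.2 and 18.4 FPKM in Zfp90ΔIEC (log2 fold change -0.18, SE 0.0532, adjusted p = 0.200), as did Aldh6a1 (log2 fold change -0.14, SE 0.0678, adjusted p = 0.395). Aldh1a1, which makes retinoic acid from retinal, was at 31.3, 28.9 and 35.9 FPKM in Zfp90fl/fl and 41, 45.8 and 34.1 FPKM in Zfp90ΔIEC, with overlap (log2 fold change 0.32, SE 0.123, adjusted p = 0.313).

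The carbonyl reductases and epoxide hydrolases were close between genotypes. Cbr1, a carbonyl reductase of wide substrate range, was at 161, 159.5 and 161 FPKM in Zfp90fl/fl and 155, 182 and 165 FPKM in Zfp90ΔIEC (log2 fold change 0.06, SE 0.0694, adjusted p = 0.744). Cbr3 had a log2 fold change of -0.04 (SE 0.119), Ephx1, the microsomal hydrolase of foreign epoxides, one of 0.01 (SE 0.0943) and Ephx2, the soluble hydrolase of fatty acid epoxides, one of -0.04 (SE 0.0829). All 4 overlapped between genotypes, at adjusted p of 0.904 for Cbr3, 0.959 for Ephx1 and 0.874 for Ephx2.

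Genes around these enzymes were taken from 5 lists of 106 genes found in the files, of which 84 were tested and 0 passed limma's adjusted p of 0.05. At an unadjusted p under 0.05, 1 of 22 NRF2 pathway genes tested was higher and 1 lower, as were 1 and 1 of 15 genes of xenobiotic receptors and partners, 3 and 0 of 12 of cofactor supply and other conjugating enzymes, 1 and 4 of 25 of peroxide and aldehyde handling, and 3 and 1 of 10 efflux transporters. Over all genes tested, 6.56% were higher and 8.09% lower at this level. Nfe2l2, which encodes NRF2, was at 78.7, 82.3 and 75.5 FPKM in Zfp90fl/fl and 88.5, 92.9 and 77.5 FPKM in Zfp90ΔIEC (log2 fold change 0.13, SE 0.0794, adjusted p = 0.525). Its inhibitor Keap1 overlapped between genotypes as well (log2 fold change 0.06, SE 0.0716, adjusted p = 0.75). Ahr, the aryl hydrocarbon receptor, was at 4.71, 3.89 and 3.72 FPKM in Zfp90fl/fl and 3.62, 3.1 and 3.18 FPKM in Zfp90ΔIEC, lower in each Zfp90ΔIEC sample (log2 fold change -0.24, SE 0.0928, adjusted p = 0.305). Nr1i2, which encodes PXR, had a log2 fold change of -0.05 (SE 0.0564, adjusted p = 0.726). Hnf4a, a transcription factor of the intestinal and liver epithelium, had one of -0.08 (SE 0.0637, adjusted p = 0.64). Both overlapped between genotypes.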

How the data were processed

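RNA-seq of colon epithelium, isolated with EDTA and DTT, was used from 3 Zfp90fl/fl and 3 Zfp90ΔIEC samples. Each sample's file, as the authors deposited it, holds an FPKM for every gene. The sources differ on how these were made, since the submitters' processing notes name STAR 2.5, Cuffnorm, DESeq 1.22.1 and mm9, and the study's methods name TopHat, Cuffdiff and a human genome. The files list mouse gene IDs, of which 52403 had a symbol in GENCODE M21, and they name no build. Gene positions are those of GENCODE M21 (GRCm38).

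From the deposited FPKM, those genes that reached 1 FPKM in 3 or more samples were tested on log2(FPKM + 1) with limma (version 3.58.1, R 4.3.3, intensity trend, Benjamini-Hochberg adjustment over all 11564 genes, threshold 0.05), without a block, and the code was tested on simulated data. The labels number the samples as replicates without saying that each came from a separate animal, so p-values measure only the spread between these samples, which may be technical. Family sums were given no test. Depth is not given in the sources used here, and fragment numbers are estimates from steps between low values, 65.2% to 70.8% of which lay within 0.1 of a whole step, too few for a count test. Motifs were searched in the 250 bases upstream of RefSeq starts, and 75-base stretches were compared across GENCODE transcripts.

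Named are the 2 members of highest mean FPKM per family, the 12 of largest log2 fold change at an unadjusted p under 0.05, any past the threshold, Nqo1, Gclc, Gclm, members below the filter with a 4-fold ratio, at least 0.3 FPKM in a group mean and no overlap, and Nfe2l2, Keap1, Ahr, Nr1i2 and Hnf4a. Other genes were named after their values were seen. The members and lists were chosen with earlier results of these data known. The alternatives tried were median ratio scaling, quantile normalization, a replicate block, a pseudocount of 0.1, a threshold of 0.1, testing without the filter, leaving out each sample and, for sums, removal of the highest member.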

Additional observations from a re-analysis of the deposited data

How the results depend on the processing

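No member passed the test with a pseudocount of 0.1, no filter, quantile normalization or median ratio scaling. With a threshold of 0.1, 6 members and 2 related genes passed. Leaving out 1 sample gave 0 to 1 member called and 0 related genes called, the 1 being Sult1c2 without Zfp90ΔIEC replicate 2, and 11 to 19 members higher and 7 to 10 lower at an unadjusted p under 0.05. The 11 came without Zfp90fl/fl replicate 1. With the replicate number as a block, 1 member (Akr1c18, log2 fold change -1.05, adjusted p = 0.0403) and 1 related gene (Dhrs9, log2 fold change -1.16, adjusted p = 0.0344) passed. The deviations of same-numbered samples correlated at 0.194, 0.110 and 0.0782, and each of the 6 samples correlated best with its own number in the other genotype. This is a hint from the data and not from the design, and as 1 of the 3 correlations was under 0.1 the number was not taken to pair them.

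Of 341 log2 fold changes of the 31 named members under alternatives, 329 kept their direction and 12, of 8 members, did not. All 12 came from leaving out a sample, over which the values ranged from -0.0038 to 0.11 for Cbr1, -0.14 to 0.015 for Cbr3, -0.062 to 0.0998 for Ephx1, -0.083 to 0.047 for Ephx2, -0.013 to 0.0905 for Gclc, -0.82 to 0.094 for Gclm, -0.089 to 0.15 for Mgst1 and -0.27 to 0.068 for Nqo1. Without its highest member the log2 ratio of the family sum was 0.054 for Aldh, 0.026 for Mgst, 0.11 for Sult, 0.31 for Ugt, 0.078 for Gst and 0.058 for Akr1. The cause was not tested. With 3 samples a group and FPKM without counts, low members such as Akr1b7 and Akr1c21 rest on few fragments.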

Other observations

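Abcb1a and Dhrs9, outside the members, had larger log2 fold changes than most members, and neither passed an adjusted p of 0.05. They are named here after their values were seen. Abcb1a, the drug efflux pump P-glycoprotein, was at 56.3, 44.4 and 46 FPKM in Zfp90fl/fl and 86.3, 118 and 96.8 FPKM in Zfp90ΔIEC (log2 fold change 1.02, SE 0.136, adjusted p = 0.0547 from limma). Every Zfp90ΔIEC sample was higher. Dhrs9, a retinol and steroid dehydrogenase, was at 4.53, 6.54 and 7.4 FPKM in Zfp90fl/fl and 1.66, 2.46 and 2.42 FPKM in Zfp90ΔIEC, lower in each Zfp90ΔIEC sample (log2 fold change -1.16, SE 0.174, adjusted p = 0.0664).

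Single samples stood apart for single antioxidant genes. Gpx1, a glutathione peroxidase, was at 128, 134 and 143 FPKM in Zfp90fl/fl and 121, 25.5 and 121 FPKM in Zfp90ΔIEC, so that replicate 2 lay far below the other 5 samples, while Gclm was lowest in Zfp90ΔIEC replicate 3. Below the filter, Ugt1a2 was listed at 0.0821, 0.0632 and 0.738 FPKM in Zfp90fl/fl and 0.957, 1.39 and 0.0623 FPKM in Zfp90ΔIEC and Ugt1a5 at 0.0702, 0.0934 and 0.791 FPKM in Zfp90fl/fl and 0.615, 0.771 and 0.101 FPKM in Zfp90ΔIEC. Both were high in the same 3 samples, Zfp90fl/fl replicate 3 and Zfp90ΔIEC replicates 1 and 2. Of their 75-base stretches, 63.3% of those of Ugt1a2 and 63.6% of those of Ugt1a5 occur in other transcripts. Each gene is among those that hold the other's stretches, so their FPKM are not separate observations.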
